A study of Homo sapiens with 6 samples.

Results

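The ZNF genes described here are the rows of the deposited expression table whose whole name is ZNF followed by digits and whose mean over the 6 libraries was at least 2 FPKM (fragments scaled to the length of the transcript model and to the mapped total of the library). The members were thus chosen by their level over both groups and not by their difference, and the rule took 101 of the 365 rows with such a name, in a table of 27918 rows. HCT-116 cells, a standard line from a human colorectal carcinoma, were transfected with 10 nM of either a negative control GapmeR (GapNC, 3 libraries) or a GapmeR against the long noncoding RNA CASC9 (GapC9, 3 libraries). RNA was taken 24 h or 48 h after transfection (the study's text is not uniform on this). A GapmeR is an antisense oligonucleotide with a DNA center that directs RNase H to cut the paired RNA. No cells left without a GapmeR were among the 6 libraries, and nothing in the labels says that the 3 libraries of a group came from separate cultures, so the p-values measure the spread between libraries.

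ZNF is a naming root and not a single family. Most of its genes encode C2H2 zinc finger proteins, in which a zinc ion held by cysteine and histidine residues folds each finger, and tandem fingers read successive bases of DNA. Many of these proteins also carry a Krüppel-associated box (KRAB) near the N terminus, which recruits TRIM28 (KAP1) and through it the histone H3K9 methyltransferase SETDB1 and HP1 proteins, so that the bound DNA, often a transposable element, is held silent. KRAB zinc finger genes lie in clusters, the largest of them on chromosome 19, and arose by repeated gene duplication. Other ZNF proteins have separate jobs, among them ribosome assembly, ubiquitin or SUMO ligation and activation of promoters.

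The members fell into 2 classes by a sequence pattern that the selection did not use. A KRAB A box pattern was found in the longest annotated protein of 31 members and not in the other 70. The pattern misses divergent boxes. The number of C2H2 fingers ranged from 0 to 34 with a median of 8, and the median was 11 with the KRAB pattern and 7 without it. In 5 members (ZNF185, ZNF330, ZNF703, ZNF738 and ZNF839) no finger matched. ZNF185 is a LIM domain protein of the actin cytoskeleton. Chromosome 19 held 27 members, of which 17 had the KRAB pattern, and chromosomes 1 and 7 held 11 each.

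The KRAB-coding stretches of the 4 KRAB members that passed a test are shown because they show how near some members are to each other in sequence. Each is 25 codons long, in exon 3 of its transcript, on the coding strand of GRCh38 (GENCODE release 29). They lie at chr19:52808059-52808133 (minus strand) in ZNF28, chr19:52849139-52849213 (minus) in ZNF468, chr19:52282111-52282185 (plus) in ZNF766 and chr7:149494041-149494115 (minus) in ZNF746. Capitals mark bases that differ from ZNF28.
ZNF28: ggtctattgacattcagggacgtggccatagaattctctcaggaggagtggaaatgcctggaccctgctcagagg
ZNF468: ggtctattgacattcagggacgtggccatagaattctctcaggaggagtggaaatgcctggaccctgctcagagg
ZNF766: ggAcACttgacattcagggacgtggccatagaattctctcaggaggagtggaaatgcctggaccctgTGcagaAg
ZNF746: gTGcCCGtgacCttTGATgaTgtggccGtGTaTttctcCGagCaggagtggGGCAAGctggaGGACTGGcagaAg
ZNF28 and ZNF468 were identical over all 75 bases. ZNF766 differed from them at 6 bases and ZNF746 at 32. Over the longest transcript listed for each gene, 6.42% of the 50-base words of ZNF28 and 9.91% of those of ZNF468 also occurred in a transcript of another gene, most of them in each other. The annotated spans of ZNF28 and ZNF468 also overlap on the same strand. How the authors' assembly divided shared reads is not given in the sources used here, so the split between these 2 rows is uncertain. The word share was 1.04% in ZNF766, 4.36% in ZNF746 and 0 in ZNF185, ZNF740 and ZNF24.

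Promoters are shown for ZNF468, ZNF766 and ZNF740, which moved past the adjusted threshold and have a single start site in the RefSeq table. Each has 300 bases, most of them upstream of the start, on GRCh38.p14, at chr19:52857570-52857869 (minus strand) for ZNF468, chr19:52269337-52269636 (plus) for ZNF766 and chr12:53180472-53180771 (plus) for ZNF740. Capitals mark matches to 6 motifs, sought on either strand. The GC box was searched as GGGCGG. The other searches used CCAAT for the CCAAT box and TATAAA for the TATA box. A core of CCGGAA was taken for ETS factors. For the factor YY1 the letters AAGATGG were used, and for the factor NRF1 the letters GCGCATG.
ZNF468: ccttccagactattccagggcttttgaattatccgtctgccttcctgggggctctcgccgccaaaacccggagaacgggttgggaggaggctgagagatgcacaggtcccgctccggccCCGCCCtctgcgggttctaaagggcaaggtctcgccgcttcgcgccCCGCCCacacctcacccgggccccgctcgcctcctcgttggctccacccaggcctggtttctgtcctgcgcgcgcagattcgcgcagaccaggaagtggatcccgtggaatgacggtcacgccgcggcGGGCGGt
ZNF766: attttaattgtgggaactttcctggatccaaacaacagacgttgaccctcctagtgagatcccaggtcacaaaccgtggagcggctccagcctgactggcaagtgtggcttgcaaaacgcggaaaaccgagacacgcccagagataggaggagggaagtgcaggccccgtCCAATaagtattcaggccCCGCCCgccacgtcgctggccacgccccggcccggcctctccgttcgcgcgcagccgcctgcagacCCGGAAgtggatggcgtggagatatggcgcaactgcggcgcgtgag
ZNF740: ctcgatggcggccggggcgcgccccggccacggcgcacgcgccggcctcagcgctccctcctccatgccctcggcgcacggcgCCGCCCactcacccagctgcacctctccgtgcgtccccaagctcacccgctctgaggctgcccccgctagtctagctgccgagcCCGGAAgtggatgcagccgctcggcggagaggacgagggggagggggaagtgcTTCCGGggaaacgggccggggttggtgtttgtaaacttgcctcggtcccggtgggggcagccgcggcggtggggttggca
The ZNF468 promoter held 3 GC boxes, that of ZNF766 1 GC box, 1 CCAAT box and 1 ETS core, and that of ZNF740 1 GC box and 2 ETS cores. A promoter was found for 88 of the 101 members. The ETS core was in 50.0% of these 88, compared with 31.9% of the 5837 promoters of rows at or above 2 FPKM and 17.6% of all 27305 promoters. The GC box was in 71.6% of the member promoters, 74.3% of those of rows at or above 2 FPKM and 44.5% of all. The CCAAT box was in 37.5%, 37.4% and 35.7% in the same order, and TATAAA in 2.27%, 4.85% and 12.02%. The YY1 letters were in 6.82%, 8.60% and 6.03%, and the NRF1 letters in 5.68%, 7.90% and 4.68%. These are matches of letters in a window, and binding was not measured.

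Levels of the members ranged from 2.01 to 31.2 FPKM (mean over 6 libraries) with a median of 3.78, and the order of levels is a description because level chose the members. The just included genes were ZNF398 (2.01 FPKM), ZNF219 (2.01 FPKM) and ZNF652 (2.06 FPKM), and the just excluded ones ZNF266 (1.98 FPKM), ZNF888 (1.98 FPKM) and ZNF77 (1.95 FPKM). Names that the table joins with another gene were left out, which removed 23 rows at or above 2 FPKM. The 10 highest were ZNF146, ZNF593, ZNF330, ZNF622, ZNF770, ZNF24, ZNF217, ZNF121, ZNF317 and ZNF367. The KRAB members had a median of 3.45 FPKM and the others 3.82 FPKM. All 101 passed the filter of the test, 0 were listed at 0 FPKM in a library, and the lowest single value was 0.185 FPKM. In 16 members 1 group had a mean under 2 FPKM (GapNC in 10, GapC9 in 6), so that they were selected through the other group.

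The libraries themselves set limits on every direction given here. CASC9 was listed at 0, 0.0108 and 0 FPKM in GapNC and at 0.0528, 0.107 and 0 FPKM in GapC9 (p = 0.4, exact two-sided permutation test, for which 0.1 is the smallest possible p), so a fall of the target is not seen in this table and directions rest on the labels. Of the 10 epithelial colorectal markers, 8 had a row of their own and 6 of these were above 1 FPKM, with VIL1 at 0.0163 FPKM and LGR5 at 0.0469 FPKM. COL1A1 (1.21 FPKM) and COL3A1 (3.47 FPKM) were detected among the fibroblast markers, COL1A2 was at 0.000309 FPKM and DCN and LUM had no row of their own, and the 4 immune and 3 endothelial markers were below 0.1 FPKM. Summed FPKM was 152661 to 166816 per library. Values are from bulk RNA, in which fewer cells of a type and less RNA per cell cannot be told apart. The table holds no counts, so no counting error can be given for a value. GC content moved with the libraries: across rows with a mean of at least 1 FPKM, Spearman's rho of GC content with each library's offset from the row's mean was 0.618 in GapNC 1 and lay between −0.384 and 0.022 in the other 5 libraries.

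The comparison of GapC9 with GapNC asks which genes change when CASC9 is targeted. A set of 3 members, ZNF28, ZNF468 and ZNF766, rose in GapC9 at an adjusted p under 0.05 (limma on log2(FPKM + 0.1) over all 16028 rows with a mean of at least 0.1 FPKM, Benjamini-Hochberg adjustment), and 2 members, ZNF185 and ZNF740, fell. The 3 higher members are 2.97% of 101, beside 1.89% of all rows tested called higher, and the 2 lower members are 1.98%, beside 5.10% called lower. All 3 that rose are KRAB genes of chromosome 19, and both that fell lack the KRAB pattern. By the study's rule (mean FPKM changed by a factor of 2 or more, up or down, and an unadjusted p under 0.05) 3 members were higher (ZNF28, ZNF468 and ZNF24, 2.97% beside 2.10% of all rows) and 1 was lower (ZNF746, 0.99% beside 4.32%). Among rows with a mean of at least 2 FPKM, the study's rule called 0.990% higher and 3.12% lower, and the adjusted threshold 2.20% and 6.69%. With 3, 2 or 1 calls, the shares describe single genes rather than the ZNF genes as a whole.

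ZNF28, with 15 fingers, had the largest rise. Its values were 0.897, 0.896 and 1.15 FPKM in GapNC and 3.07, 3.62 and 3.44 FPKM in GapC9. All GapC9 libraries were above all GapNC libraries, and no value lay between 1.15 and 3.07 FPKM. The means were 0.982 ± 0.147 and 3.38 ± 0.281 FPKM (SD, n = 3), and the log2 fold change was 1.69 (SE 0.15, limma adjusted p = 0.0147). As its GapNC mean was under 2 FPKM, ZNF28 was selected through the group in which it was high.

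ZNF468, with 11 fingers, followed. Its values were 4.29, 5.36 and 3.97 FPKM in GapNC and 10.4, 8.87 and 8.98 FPKM in GapC9, again with no overlap. The log2 fold change was 1.04 (SE 0.15, limma adjusted p = 0.0241). ZNF766, with 7 fingers, was at 2.31, 1.87 and 2.89 FPKM in GapNC and at 4.15, 4.43 and 4.82 FPKM in GapC9. The groups did not overlap, and the log2 fold change was 0.91 (SE 0.18, limma adjusted p = 0.0413).

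ZNF185, the LIM domain protein, was at 8.23, 7.71 and 8.06 FPKM in GapNC and at 4.21, 4.14 and 3.70 FPKM in GapC9. Both groups were tight, at 7.999 ± 0.265 and 4.02 ± 0.275 FPKM (SD, n = 3), and the level in GapC9 was 0.502 of that in GapNC, just short of the study's rule. The log2 fold change was −0.98 (SE 0.10, limma adjusted p = 0.0159). ZNF740 was at 4.52, 4.21 and 4.27 FPKM in GapNC and at 2.84, 2.76 and 2.83 FPKM in GapC9. The groups did not overlap, and the log2 fold change was −0.60 (SE 0.10, limma adjusted p = 0.0307). ZNF740 overlaps CSAD and ITGB7 on the opposite strand, and use of read strand in counting is not given in the sources used here.

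ZNF24 and ZNF746 passed the study's rule but not the adjusted threshold, and both had wide GapNC values. ZNF24, a SCAN domain repressor of the VEGFA promoter, was at 12.4, 17.1 and 6.003 FPKM in GapNC and at 21.99, 25.9 and 25.999 FPKM in GapC9. The groups did not overlap, and GapNC 3 was lowest (log2 fold change 1.17, SE 0.37, limma adjusted p = 0.1201). ZNF746 encodes PARIS, a KRAB repressor of the PGC-1α gene and a substrate of the ubiquitin ligase parkin. Its values were 3.72, 1.76 and 4.87 FPKM in GapNC and 1.48, 1.27 and 1.26 FPKM in GapC9. The groups did not overlap, but GapNC 2 lay close to the GapC9 libraries (log2 fold change −1.19, SE 0.36, limma adjusted p = 0.109). Its GapC9 mean of 1.34 FPKM was under the selection level.

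**Figure D1:**
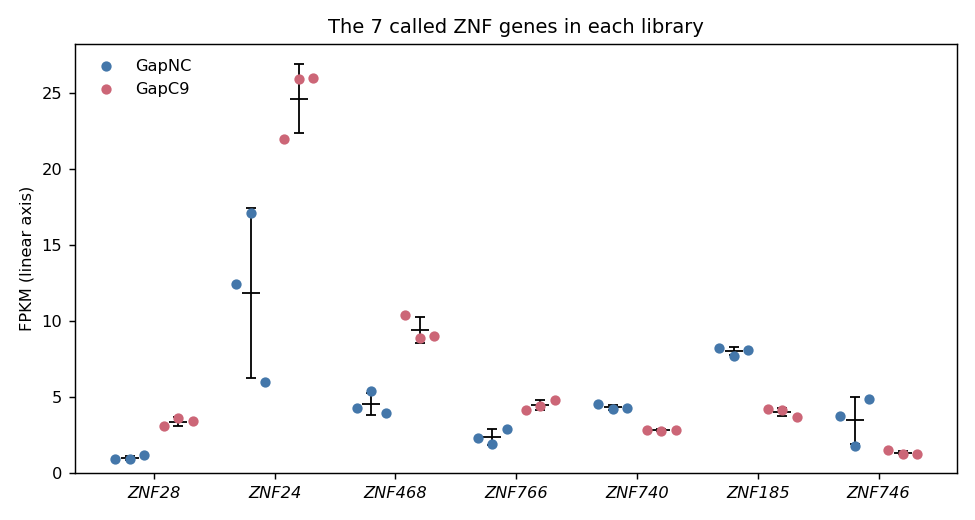
FPKM (linear axis) of the 7 ZNF genes that passed either call, with 1 point per library, GapNC in blue and GapC9 in red, and black bars for the mean ± SD (n = 3). The groups do not overlap in any of the 7, and the GapNC libraries of ZNF24 spread from 6.003 to 17.1 FPKM.

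The 5 calls at the adjusted threshold depended on which libraries entered, and the cause was not tested. Without GapNC 1, 4 of them remained and ZNF766 did not. Without GapNC 3 or GapC9 1, only ZNF28 remained, and without GapNC 2, GapC9 2 or GapC9 3 none did, while over all rows tested the count of higher calls fell from 303 to between 16 and 35 without any 1 of these 5 libraries. The log2 fold changes of the 5 kept their sign in every fit with a library left out, from 1.63 to 1.80 in ZNF28, 0.95 to 1.17 in ZNF468, 0.76 to 1.06 in ZNF766, −1.01 to −0.92 in ZNF185 and −0.62 to −0.57 in ZNF740. Over 12 other settings of the fit, the log2 fold change of ZNF28 ranged more widely, from 1.14 to 1.81. The range was 0.92 to 1.15 in ZNF468 and 0.71 to 1.04 in ZNF766. It was −0.99 to −0.84 in ZNF185 and −0.62 to −0.46 in ZNF740. All 5 lost their call with a replicate block (limma adjusted p 0.0608 to 0.0653), a fit in which 0 of all rows were called. They also lost it with GC correction and the block together (limma adjusted p 0.0557 to 0.0677). ZNF766 also lost its call with no filter (adjusted p = 0.0691) and without the variance trend (adjusted p = 0.0502). With libraries scaled to equal medians, 6 members were higher and 2 lower, of 391 and 505 of all rows (2.44% and 3.15%), and this scaling moved the median log2 fold change of all rows by 0.10, from −0.08 to 0.02.

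Beyond the calls, more members were higher than lower. The median log2 fold change of the 101 was 0.15 and that of all rows tested −0.08, and 65 members were positive and 36 negative. The balance over all rows depends on the scaling: by the study's rule 336 rows were higher and 693 lower, but 464 and 476 with median scaling and 467 and 422 after GC correction, where the median of all rows was 0.02 in both. At an unadjusted p under 0.05, 19 members (18.8%) were higher, beside 9.09% of all rows, and 10 (9.90%) were lower, beside 16.8%. Of the 85 members with both group means at least 2 FPKM, 11 (12.9%) were higher and 7 (8.24%) lower at that p. Of the 8489 rows with a mean of at least 2 FPKM, 11.1% were higher and 19.6% lower. In 24 members (23.8%) all GapC9 libraries were above all GapNC libraries, beside 12.6% of all rows, and in 12 (11.9%) all were below, beside 21.6%. Among the 85 members with at least 2 FPKM in both groups, 15 (17.6%) were without overlap in the higher and 9 (10.6%) in the lower direction, and the median was 0.13. Among the 8489 rows with a mean of at least 2 FPKM, the shares were 15.1% and 24.01%. No test of the list was made, since genes of 1 library are not replicates.

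Among the 31 KRAB members, 25 had a positive log2 fold change, with a median of 0.39, but 6 of the 31 had a GapNC mean under 2 FPKM and were selected through GapC9 alone, and 1 through GapNC alone. All GapC9 libraries were above all GapNC libraries in 12 of the 31 (38.7%, 5 of the 12 selected through GapC9 alone) and below in 2 (6.45%), ZNF746 and ZNF394, of which ZNF394 is named after its values were seen. Of the 70 members without the pattern, 40 were positive, with a median of 0.09, and 12 (17.1%) were without overlap in the higher and 10 (14.3%) in the lower direction. With both group means at least 2 FPKM, 24 KRAB members were left, with a median of 0.24, 19 positive, and 7 (29.2%) without overlap in the higher and 1 (4.17%) in the lower direction. The 61 others left had a median of 0.10, with 8 (13.1%) in each direction. Over all rows tested, 6993 of 16028 were positive, and 12.6% and 21.6% were without overlap in the higher and lower direction. Among the 8489 rows with a mean of at least 2 FPKM, the shares without overlap were 15.1% and 24.01%. The 17 KRAB members on chromosome 19 had a median of 0.56, and the 11 of them with both group means at least 2 FPKM a median of 0.29. The 14 KRAB members on other chromosomes had a median of 0.21 and 10 were positive. Without the KRAB pattern, the median was 0.17 on chromosome 19 (n = 10) and 0.07 elsewhere (n = 60). The difference between these classes was not tested.

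**Figure D2:**
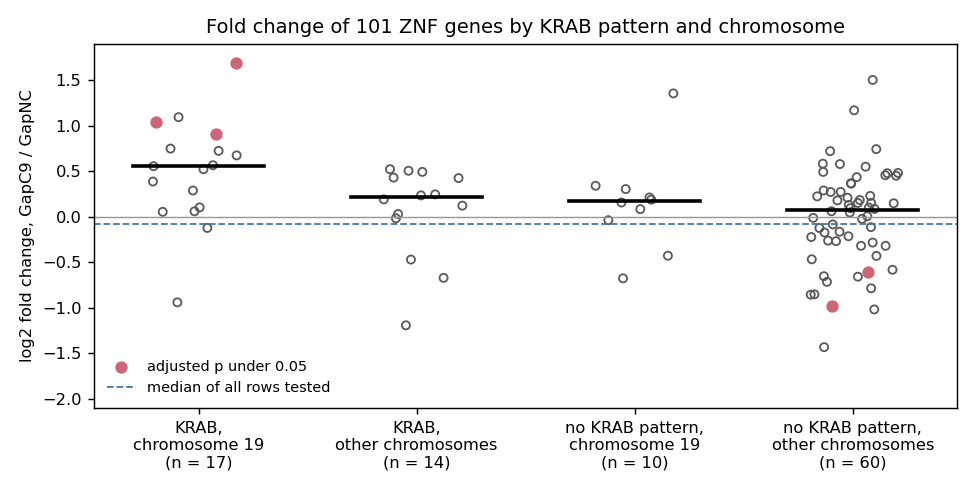
Log2 fold change (GapC9 / GapNC) of the 101 ZNF genes, split by KRAB pattern and chromosome, with 1 point per gene, filled red at an adjusted p under 0.05, a black line at the class median and a dashed line at the median of all 16028 rows. The KRAB genes of chromosome 19 (median 0.56) include 6 that reached 2 FPKM through GapC9 alone, and the 11 others have a median of 0.29.

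The same genes were also read library by library. For each gene, deviations from its own mean over the 6 libraries balance, so its average sign in 1 group follows from the other. Medians over genes are not bound to balance in this way. The values show the spread within a group. The median deviation of the 31 from their own means, in log2(FPKM + 0.1), was −0.25, −0.22 and −0.10 in GapNC 1, 2 and 3 and 0.20, 0.28 and 0.24 in GapC9 1, 2 and 3. For the 24 with both group means at least 2 FPKM it was −0.20, −0.073 and −0.031 in GapNC and 0.17, 0.24 and 0.23 in GapC9. For the 70 without the pattern the same medians were 0.045, 0.005 and 0.000 in GapNC and 0.093, 0.041 and 0.022 in GapC9, which overlapped. For all rows tested they were 0.0997, 0.035 and 0.030 in GapNC and −0.019, −0.042 and −0.041 in GapC9, in the other direction.

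**Figure D3:**
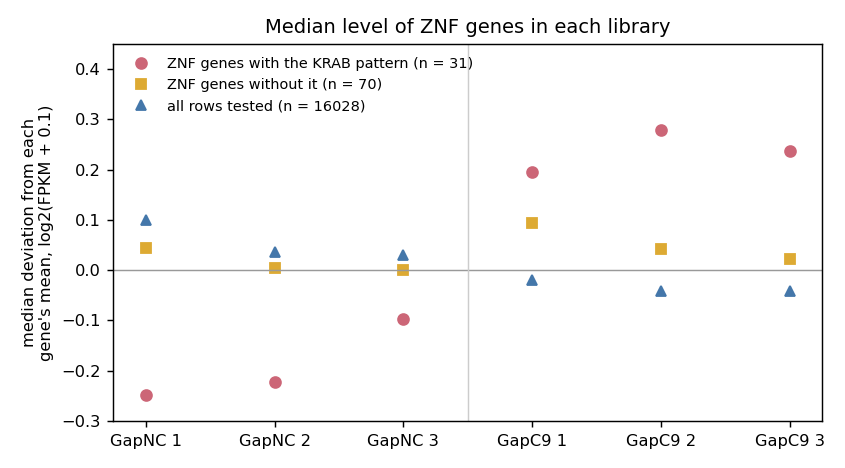
Median deviation of genes from their own mean over 6 libraries, in log2(FPKM + 0.1), for each library, with circles for 31 KRAB members, squares for 70 members without the pattern and triangles for all rows tested. The circles lie at −0.25 to −0.10 in GapNC and at 0.20 to 0.28 in GapC9, whereas the triangles are slightly higher in GapNC.

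GC content moved with these differences. The longest listed transcripts of the KRAB members had a median GC content of 43.5%, those of the other members 51.4%, and those of all rows tested 49.0%. Across the 101 members, Spearman's rho between GC content and log2 fold change was −0.43 (all rows tested −0.25). The genes share the same 6 libraries and are not independent. The 50 members below the median GC content of the members had a median log2 fold change of 0.29, and the 51 at or above it −0.02. After each library was corrected for GC content with a lowess curve, rho was −0.06 across the members. The median log2 fold change was then 0.38 in the KRAB members and 0.155 in the others. With both group means at least 2 FPKM, these corrected medians were 0.34 (n = 24) and 0.13 (n = 61). On chromosome 19 the corrected median was 0.55 in the 17 KRAB members and 0.44 in the 10 members without the pattern. It was 0.17 in the 11 of these KRAB members with both group means at least 2 FPKM. On other chromosomes it was 0.34 with the pattern and 0.12 without it. In that fit 16 members were higher and 4 lower at an adjusted p under 0.05, of 1142 higher and 1236 lower among all rows, and 9 of the 16 and 0 of the 4 had the KRAB pattern. Without GapNC 1, the library with the strongest GC relation, the medians were 0.30 and 0.07.

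**Figure D4:**
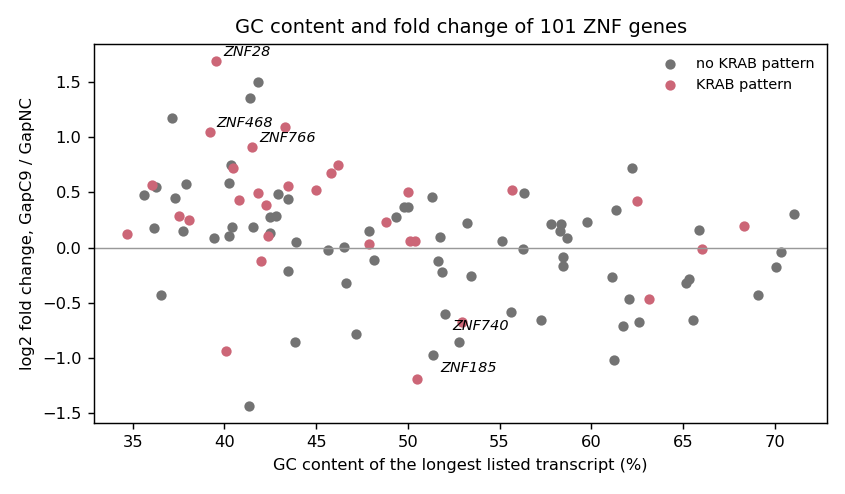
GC content (%) of the longest listed transcript against the log2 fold change (GapC9 / GapNC) of the 101 ZNF genes, red with the KRAB pattern and grey without. Points with a GC content below 48.2% lie mostly above 0, and the 5 named genes are those past the adjusted threshold.

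The number of fingers was associated with the same order. The 39 members with 10 or more fingers had a median log2 fold change of 0.25 and a median GC content of 45.6%, with 30 positive. The 42 with 4 to 9 fingers had a median of 0.09 and a GC content of 50.7%, with 25 positive, and the 20 with at most 3 fingers had a median of −0.03 and a GC content of 50.9%, with 10 positive. Both that fell at the adjusted threshold, ZNF185 and ZNF740, have at most 3 fingers by the pattern.

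A list of 32 ZNF genes with roles outside KRAB repression held 24 members, and 0 of the 24 passed the adjusted threshold by limma, 5 had an unadjusted p under 0.05 (2 higher, 3 lower), and ZNF24 alone passed the study's rule. For comparison, an unadjusted p under 0.05 was reached by 8.33% of the 24 in the higher and 12.5% in the lower direction, beside 9.09% and 16.8% of all rows. Across the 24, Spearman's rho between GC content and log2 fold change was −0.81, and −0.44 after the GC correction. Across the 101 members it was −0.43 and −0.06. A role of GC content in the single genes was not tested. Among the 24 are 3 with roles at the ribosome. ZNF593, a relative of the yeast pre-60S export factor Bud20, was at 27.8, 40.2 and 34.8 FPKM in GapNC and 23.3, 18.4 and 34.3 FPKM in GapC9 (log2 fold change −0.47, 95% interval −1.10 to 0.17). ZNF622, a relative of the 60S maturation factor Rei1, was at 24.7, 22.1 and 12.5 FPKM in GapNC and 22.2, 22.3 and 22.2 FPKM in GapC9 (0.23, −0.41 to 0.86). The groups overlapped in both. ZNF598, the ubiquitin ligase that senses collided ribosomes, was at 17.3, 10.99 and 10.4 FPKM in GapNC and 8.97, 8.98 and 6.25 FPKM in GapC9, without overlap (−0.65, SE 0.25, limma adjusted p = 0.173).

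Members that act at promoters and in chromatin complexes gave mixed values. ZNF143, an activator of RNA polymerase II and III promoters, was at 5.24, 5.79 and 5.50 FPKM in GapNC and 6.40, 5.66 and 6.09 FPKM in GapC9, with overlap (log2 fold change 0.13, 95% interval −0.12 to 0.39). Its paralog ZNF76 was at 5.47, 4.26 and 4.08 FPKM in GapNC and 3.34, 2.89 and 2.85 FPKM in GapC9. These did not overlap (−0.58, SE 0.15, limma adjusted p = 0.0785). ZNF217, a colon and breast cancer amplification target that joins corepressor complexes, was at 18.1, 20.4 and 19.5 FPKM in GapNC and 16.2, 16.4 and 17.3 FPKM in GapC9, without overlap but with a small difference (−0.21, SE 0.09, limma adjusted p = 0.208). ZNF592, ZNF687 and ZNF532, which share a complex with ZMYND8, had log2 fold changes of −0.22, 0.15 and −0.02, with overlap of the groups in all 3.

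ZNF644, a partner of the H3K9 methyltransferases G9a and GLP, was at 5.49, 8.08 and 8.35 FPKM in GapNC and 8.87, 11.02 and 9.82 FPKM in GapC9, without overlap (log2 fold change 0.45, SE 0.19, limma adjusted p = 0.205). The log2 fold changes of ZNF335, of the DBIRD complex member ZNF326, of the SUMO ligase ZNF451 and of the BTB protein ZNF131 were −0.27, 0.18, 0.15 and 0.27, with overlap in all 4. ZNF384 was 7.62, 7.06 and 6.78 FPKM in GapNC and 6.04, 5.59 and 6.22 FPKM in GapC9 (−0.26, limma adjusted p = 0.183), without overlap. ZNF148 (0.48), ZNF263 (−0.01), ZNF668 (−0.28), ZNF703 (−0.32) and the nucleolar protein ZNF330 (0.18) overlapped. The sign of ZNF335, ZNF263, ZNF668, ZNF703 and ZNF532 turned after the GC correction.

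Of the list, ZNF706 came nearest to the adjusted threshold. It was at 7.63, 8.86 and 5.92 FPKM in GapNC and 11.95, 12.2 and 13.1 FPKM in GapC9, without overlap (log2 fold change 0.74, SE 0.16, limma adjusted p = 0.0527). ZNF14, a KRAB gene of chromosome 19 singled out after its values were seen, was at 1.40, 1.91 and 1.94 FPKM in GapNC and 2.92, 3.13 and 2.76 FPKM in GapC9 (0.73, SE 0.16, limma adjusted p = 0.0537). As its GapNC mean was 1.75 FPKM, ZNF14 was selected through GapC9, the group in which it was high. Among the most abundant members without a listed role, ZNF770 was at 11.4, 16.0 and 17.5 FPKM in GapNC and 18.9, 23.6 and 22.5 FPKM in GapC9 (0.55, SE 0.19, limma adjusted p = 0.141), and ZNF121 at 10.8, 13.7 and 13.4 FPKM in GapNC and 13.8, 14.9 and 14.4 FPKM in GapC9 (0.19, SE 0.12, limma adjusted p = 0.390). Neither overlapped between the groups.

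Many members varied widely between libraries of the same group. In 31 of the 101 (30.7%) the highest value of a group was over 2-fold its lowest (20 in GapNC, 18 in GapC9, 7 in both), compared with 17.6% of the 8489 rows at or above 2 FPKM. The 8489 rows were not matched for level to the members, whose median was 3.78 FPKM, and a role of level was not tested. ZNF281, a paralog of ZNF148, fell into high and low values that did not follow the groups, at 0.336, 5.23 and 0.692 FPKM in GapNC and 6.16, 0.947 and 6.31 FPKM in GapC9 (log2 fold change 1.505, SE 1.14, limma adjusted p = 0.455). ZNF146 (OZF), a protein made almost wholly of fingers, was the most abundant member, at 25.02, 29.8 and 5.87 FPKM in GapNC and 39.3, 43.9 and 43.3 FPKM in GapC9. Its groups did not overlap, but the single low value in GapNC 3 widened the error (log2 fold change 1.36, SE 0.61, limma adjusted p = 0.223).

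The single low library was another in other members. ZNF367 was at 10.0, 14.1 and 13.7 FPKM in GapNC and at 11.2, 12.4 and 2.27 FPKM in GapC9. ZNF317 was at 12.6, 12.1 and 11.4 FPKM in GapNC and at 19.1, 17.9 and 5.64 FPKM in GapC9. ZNF22, named after its values were seen, was at 5.81, 7.88 and 7.77 FPKM in GapNC and at 0.185, 7.85 and 8.23 FPKM in GapC9. In ZNF367 and ZNF317 the low value was in GapC9 3 and in ZNF22 in GapC9 1, and the groups overlapped in all 3. Leaving out GapNC 3 changed the log2 fold change of ZNF146 to 0.62 and that of ZNF24 to 0.75.

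**Figure D5:**
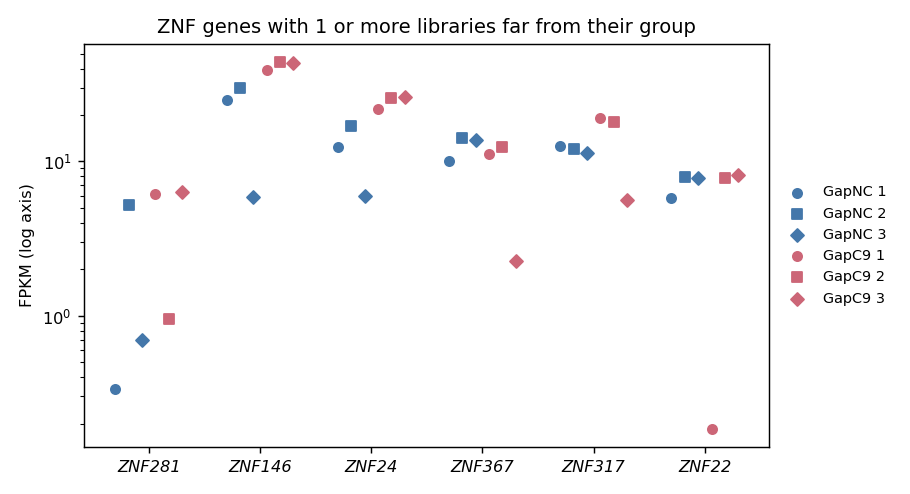
FPKM (log axis) of 6 ZNF genes with a wide range within a group, with 1 point per library, GapNC in blue and GapC9 in red, and a marker shape for each replicate number. Single libraries lie far below the rest, GapNC 3 in ZNF146 and ZNF24, GapC9 3 in ZNF367 and ZNF317 and GapC9 1 in ZNF22, while ZNF281 has 3 high and 3 low libraries.

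In a list of genes linked to KRAB repression 2 fell past the adjusted threshold, and neither was TRIM28 or SETDB1. These 2 are 9.52% of the listed genes tested. The threshold called 5.10% of all rows lower, and 6.69% of rows at or above 2 FPKM. With 2 calls, the share describes single genes rather than the list. Of 27 symbols (FAM208A and TASOR name 1 gene), 21 had a row of their own, 11 of them with a positive log2 fold change and a median of 0.01. By limma, 0 were higher and 2 lower at an adjusted p under 0.05, and 2 (9.52%) were higher and 4 (19.05%) lower at an unadjusted p under 0.05, near the 9.09% and 16.8% of all rows. TRIM28, the corepressor itself, was at 212, 141 and 135 FPKM in GapNC and at 162, 139 and 123 FPKM in GapC9, with overlap (−0.18, SE 0.21, limma adjusted p = 0.623), and its sign turned after the GC correction (0.18) and without GapNC 1 (0.028). SETDB1 was at 5.94, 6.14 and 5.30 FPKM in GapNC and 7.51, 6.94 and 6.88 FPKM in GapC9, without overlap (0.29, SE 0.11, limma adjusted p = 0.160). It was not called and was not among the genes planned to be named. Of the 21, 2 (9.52%) were without overlap in the higher and 4 (19.05%) in the lower direction, beside 12.6% and 21.6% of all rows. The uncalled ones besides SETDB1 were CHD3 (0.30, limma adjusted p = 0.189), CHD4 (−0.29, limma adjusted p = 0.118) and UHRF1 (−0.66, limma adjusted p = 0.0574). EHMT2, which encodes G9a, fell from 13.7, 10.6 and 9.78 FPKM to 6.57, 6.02 and 5.34 FPKM (−0.90, SE 0.16, limma adjusted p = 0.0351). FAM208A (TASOR), the core of the HUSH silencing complex, fell from 3.67, 4.27 and 4.57 FPKM to 2.30, 2.57 and 2.79 FPKM (−0.68, SE 0.14, limma adjusted p = 0.0434). Both falls kept an adjusted p under 0.05 without GapNC 1 and lost it without any 1 of the other 5 libraries (largest adjusted p 0.125 and 0.141). EHMT2 also lost it in 3 of 12 other settings (adjusted p up to 0.0608), and FAM208A in 6 of 12, median scaling and quantile normalization among them (up to 0.0904). In these 2 genes the groups did not overlap.

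Other zinc finger genes were described in the same way. The 209 ZNF rows from 0.1 to under 2 FPKM had a median log2 fold change of 0.18, and 129 of them with the KRAB pattern had a median of 0.21. Of the 209, 5 (2.39%) were called higher and 2 (0.957%) lower at an adjusted p under 0.05. Among all rows tested the shares were 1.89% and 5.10%. The 20 ZBTB genes (median 0.12, 1 higher and 1 lower), the 8 ZSCAN and ZKSCAN genes (0.29, 0 higher and 0 lower by limma, 2 higher at an unadjusted p under 0.05), the 8 ZNF genes whose name ends in a letter (0.28, 0 higher and 0 lower by limma, 2 higher and 1 lower at an unadjusted p under 0.05) and the 13 KLF and SP genes (0.01, 1 higher and 2 lower) were all at or above 2 FPKM. Among all rows at or above 2 FPKM, the adjusted threshold called 2.20% higher and 6.69% lower. At an unadjusted p under 0.05 the shares of these rows were 11.1% and 19.6%. In families this small the counts describe single genes rather than the family. The difference between the 101 members and these families was not tested.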

How the data were processed

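Libraries were assigned to GapNC or GapC9 by their transfection label. The authors aligned reads with HISAT and deposited FPKM from StringTie (HISAT2 2.0 and StringTie 1.3.0 in the submitters' processing notes, which also name Bowtie 0.12.2 and a mouse build, so the human build is uncertain). FPKM is relative to the whole library. With no counts deposited, the edgeR test of the study was not run. In R 4.3.3, limma 3.58.1 (eBayes with trend) was fitted to log2(FPKM + 0.1) of rows with a mean of at least 0.1 FPKM. The pseudocount shrinks fold changes of weakly expressed genes. The fit was tested on simulated data. GC content and KRAB and finger patterns came from GENCODE release 29 transcripts, translated from their coding sequence because no protein table was used here (GC content known for 15909 of 16028 rows), and promoters from RefSeq. Alternatives varied the pseudocount, filter, scaling, variance model, replicate block, GC correction (lowess, span 0.3), selection level and libraries. Named genes were those called, the 10 most abundant, a role list, those next to 2 FPKM and corepressors. Members and lists were chosen with earlier results of these data known. Tables and figures were made in Python 3.11.15.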

Additional observations from a re-analysis of the deposited data

How the results depend on the processing

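With the cause of each change not tested, the sign of the median log2 fold change of the 101 ZNF genes and of both KRAB classes held in all fits. Main counts were 3 higher and 2 lower by adjusted p, 3 and 1 by the study's rule, and 24 and 12 without overlap. By adjusted p, GC correction gave 16 higher and 4 lower (KRAB 9 and 0, others 7 and 4), a filter of at least 1 FPKM 7 higher (KRAB 6, others 1), no row listed at 0 5 higher (others 1), median scaling 6 (others 2) and quantile normalization 7 (KRAB 5, others 2). Over all rows tested, GC correction called 7.13% higher and 7.71% lower, beside 1.89% and 5.10% in the main fit. Higher calls over all rows were 3.03% with the filter and 2.31% with no row listed at 0. They were 2.44% with median scaling and 2.16% with quantile normalization. By the study's rule, GC correction gave 1 higher (2.91% of all rows), median scaling 5 higher (2.89% of all rows), and the fitted fold change 2 lower. Without overlap, GC correction gave 40 higher and 7 lower, and the shares over all rows in that fit are not given here. The median was 0.23 with GC correction (others 0.155), 0.26 with median scaling (KRAB 0.50, others 0.20), 0.24 with quantile normalization (KRAB 0.52, others 0.21) and 0.12 with a pseudocount of 1 (KRAB 0.29).

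Selection from 1 FPKM gave 3 lower by the study's rule, 19 lower without overlap and a median of 0.19. From 5 FPKM, 0 were lower by the study's rule, 1 higher and 1 lower by adjusted p, 9 and 4 without overlap, with a median of 0.13. With both group means at least 2 FPKM, 0 were lower by the study's rule, 15 higher without overlap and the median was 0.13.

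With 1 library left out, higher calls ranged from 0 to 2 by adjusted p (KRAB 0 to 2) and 2 to 5 by the study's rule, lower calls 0 to 2 (others 0 to 2) and 0 to 3, and medians 0.092 to 0.18 (KRAB 0.30 to 0.50, others 0.042 to 0.13).

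Replicate numbers are shared by the groups, but deviations of same-numbered libraries correlated at only 0.097, 0.040 and 0.024, so the numbers were not used to pair libraries. With a replicate block, 0 members were higher and 0 lower by adjusted p (0 of all rows either, KRAB 0, others 0), and with GC correction and the block together 0 and 0 again (KRAB 0, others 0), with 1 higher by the study's rule, 40 and 7 without overlap and medians of 0.23 and 0.155 (others).

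The sign of 11 uncalled genes turned in some fits. With GC correction, with or without the block, TRIM28 was 0.18, ZNF219 0.27, ZNF263 0.21, ZNF335 0.048, ZNF532 0.012, ZNF668 0.10 and ZNF703 0.065. With median scaling and quantile normalization ZNF263 was 0.10 and 0.13 and ZNF532 0.086 and 0.11. With 1 library left out, log2 fold changes ranged from −0.30 to 0.028 in TRIM28, −0.31 to 0.090 in ZNF219, −0.095 to 0.14 in ZNF263, −0.25 to 0.62 in ZNF317, −0.18 to 0.31 in ZNF398, −0.16 to 0.36 in ZNF451, −0.060 to 0.025 in ZNF532 and −0.073 to 0.41 in ZNF622. In all, 627 of 720 refits of named genes kept direction and side of the threshold, 55 lost it, 7 gained it and 31 changed sign. Most refits were of uncalled genes, which have no call to lose, so the 627 does not measure how stable the calls were. The losses were in ZNF28, ZNF468, ZNF766, ZNF185, ZNF740, EHMT2 and FAM208A. Each of these lost its call in 2 to 6 of 12 other settings and kept it in only 0 to 3 fits with 1 library left out. FPKM without counts leaves the precision of low values unknown.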
